A study of Mus musculus with 11 samples.

Results

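The enzymes and binding proteins that write, copy, read and remove DNA methylation were examined at their own loci in newborn pancreas. They were taken by gene symbol and comprised 10 genes: the DNA methyltransferases Dnmt1, Dnmt3a and Dnmt3b, the catalytically inactive cofactor Dnmt3l, the hemimethylation-binding protein Uhrf1, the methyl-CpG reader Mbd2, the dioxygenases Tet1, Tet2 and Tet3, and the glycosylase Tdg. All 10 had a row among the 25802 genes measured. Only 7 had one among the 24391 promoters, since no promoter row was listed for Dnmt1, Dnmt3l or Tet3. Around these genes, 13 of 14841 CpG islands and 102 of 259716 genomic tiles of 5000 bp overlapped the gene body or the 1500 bp upstream of its listed start.

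Methylation was measured by reduced representation bisulfite sequencing (RRBS), which reads CpG sites next to restriction cuts, in whole pancreas of wild-type C57BL/6N mice on postnatal day 0. Their dams had received amphetamine, a psychostimulant, at 10 mg/kg on embryonic days 14.5, 15.5 and 16.5 (5 offspring, of which 3 were female and 2 male), or saline on the same days as control (6 offspring, of which 3 were female and 3 male). The question was whether the loci of the methylation machinery themselves differed between exposed and control offspring, or between the sexes. The labels did not tie the mice to litters, so p-values measure the spread between these mice and some of them may be littermates. Because a whole organ was measured, a changed share of one cell type and a changed methylation level within cells cannot be told apart.

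DNA methylation in mammals sits mainly on the cytosine of CpG dinucleotides. Dnmt3a and Dnmt3b place it on unmethylated DNA, with Dnmt3l as a helper in germ cells and early embryos. Uhrf1 recognises the hemimethylated sites left by replication and brings Dnmt1 to copy the mark to the new strand. The Tet enzymes oxidise 5-methylcytosine, and Tdg cuts out the oxidised bases for repair. Mbd2 binds methylated CpGs and recruits repressor complexes. CpG islands at gene starts are usually free of the mark, whereas the bodies of transcribed genes usually carry it.

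The sequences of the regions on which the comparison turns are given first, because RRBS sees a CpG only where MspI (CCGG) or TaqI (TCGA) cuts nearby. Each is written 5′ to 3′ on the strand of the gene, in build GRCm38, with CCGG and TCGA sites in capitals. Both motifs read the same on either strand. Bases annotated as untranslated region were left out, so that some windows are shorter than 250 bases. The Tet2, Tdg, Uhrf1 and internal Dnmt3a windows lie directly upstream of a RefSeq transcript start and come from RefSeq's promoter table. The windows of Tet1 were read from the genome.
Tet2, upstream of the start, chr3:133544391-133544640, minus strand: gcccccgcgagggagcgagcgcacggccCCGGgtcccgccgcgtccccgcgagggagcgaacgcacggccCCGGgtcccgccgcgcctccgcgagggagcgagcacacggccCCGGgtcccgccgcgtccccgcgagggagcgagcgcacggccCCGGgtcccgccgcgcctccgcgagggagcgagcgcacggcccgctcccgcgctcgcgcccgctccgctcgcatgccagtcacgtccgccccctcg
Uhrf1, upstream of the start, chr17:56303087-56303320, plus strand: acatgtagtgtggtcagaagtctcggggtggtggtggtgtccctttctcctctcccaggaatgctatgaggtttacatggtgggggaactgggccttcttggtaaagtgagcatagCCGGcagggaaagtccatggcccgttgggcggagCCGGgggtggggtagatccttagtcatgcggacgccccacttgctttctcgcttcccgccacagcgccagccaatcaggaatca
Tdg, upstream of the start, chr10:82629588-82629827, plus strand: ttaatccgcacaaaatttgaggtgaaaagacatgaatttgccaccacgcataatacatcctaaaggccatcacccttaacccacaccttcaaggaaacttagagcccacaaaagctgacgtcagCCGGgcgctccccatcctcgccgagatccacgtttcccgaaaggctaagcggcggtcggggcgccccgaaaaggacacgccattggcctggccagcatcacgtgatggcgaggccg
Dnmt3a, upstream of the internal start of the short isoform, chr12:3891494-3891727, plus strand: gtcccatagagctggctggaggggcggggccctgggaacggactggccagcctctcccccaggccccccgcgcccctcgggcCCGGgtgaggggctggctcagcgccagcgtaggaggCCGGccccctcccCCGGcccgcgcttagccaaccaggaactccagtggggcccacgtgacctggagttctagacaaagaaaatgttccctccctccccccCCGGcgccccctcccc
Tet1, inside its CpG island, chr10:62886922-62887171, minus strand: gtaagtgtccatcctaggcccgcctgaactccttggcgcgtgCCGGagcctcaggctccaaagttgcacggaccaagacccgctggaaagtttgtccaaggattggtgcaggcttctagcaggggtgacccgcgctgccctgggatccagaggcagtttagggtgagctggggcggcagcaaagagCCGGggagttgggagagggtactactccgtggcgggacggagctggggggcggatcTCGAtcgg
Tet1, upstream of the listed start, chr10:62899119-62899368, minus strand: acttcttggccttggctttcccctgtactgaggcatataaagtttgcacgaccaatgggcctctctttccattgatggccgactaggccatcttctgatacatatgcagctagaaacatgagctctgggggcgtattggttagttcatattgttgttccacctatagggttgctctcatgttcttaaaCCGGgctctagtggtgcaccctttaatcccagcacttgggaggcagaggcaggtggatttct
The Tet2 window was the densest of these, with 51 CpGs and 4 MspI sites spaced exactly 42 bp apart in a tandem repeat. It lay wholly within a CpG island. The Tdg window held 18 CpGs and 1 MspI site, the Uhrf1 window 10 CpGs and 2 MspI sites, and the internal Dnmt3a window 15 CpGs and 4 MspI sites. The 2 Tet1 windows differed in the same measure, with 16 CpGs, 2 MspI sites and 1 TaqI site in the island against 4 CpGs and 1 MspI site upstream of the listed start. Among 20667 windows of 250 bases upstream of listed starts, 66.4% held CCGG, 22.8% held TCGA and the median number of CpGs was 12.

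A promoter row starts 1500 bp before the listed gene start and ends 500 bp after it. These rows were low in methylation for 6 of the 7 genes that had one. Dnmt3b stood at 4.56% ± 0.45 (SD, n = 5) after amphetamine and 5.08% ± 1.60 (SD, n = 6) in controls, and Mbd2 at 0.712% ± 0.538 and 1.48% ± 1.34. Tet2 lay at 3.80% ± 1.61 and 1.86% ± 0.628. These levels rested on mean coverages of 350 to 866 per mouse. Coverage was taken as summed over the CpGs of a row, so a read that spans several CpGs counts at each. Where coverage is given in reads below, it means such counts and not separate sequenced reads. Tdg and Uhrf1 were also low on average but varied more between mice. The Tdg promoter ranged from 1.26% to 17.7% after amphetamine and from 2.77% to 27.5% in controls, and the Uhrf1 promoter from 0% to 14.9% and from 2.50% to 39.1%. Across all promoters, 59.0% lay under 20% in controls.

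The promoter rows of Tet1 and Dnmt3a did not describe the CpG-rich starts of these genes. The Tet1 row (chr10:62898619-62900618) was methylated at 78.3% ± 21.7 (SD, n = 5) after amphetamine and 71.0% ± 40.1 (SD, n = 6) in controls, with single mice between 0% and 100% at a coverage of about 27.4 and 25.2 reads. Its CpG island (chr10:62886789-62887349), 12.05 kb further into the gene and over the start of the transcript Tet1-207, was at 1.74% ± 1.78 and 2.44% ± 2.65 with 551 and 368 reads. The regions over these 2 starts of one gene thus had methylation near opposite ends of the scale. The Dnmt3a row (chr12:3804507-3806506) was listed at 0% in the 3 mice per group that had any reads there, at a mean coverage of 3.40 and 1.17. The tile over that start (chr12:3805001-3810000) gave the better-covered value of 2.85% ± 0.83 and 2.28% ± 0.877 with 1609 and 1199 reads.

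**Figure D1:**
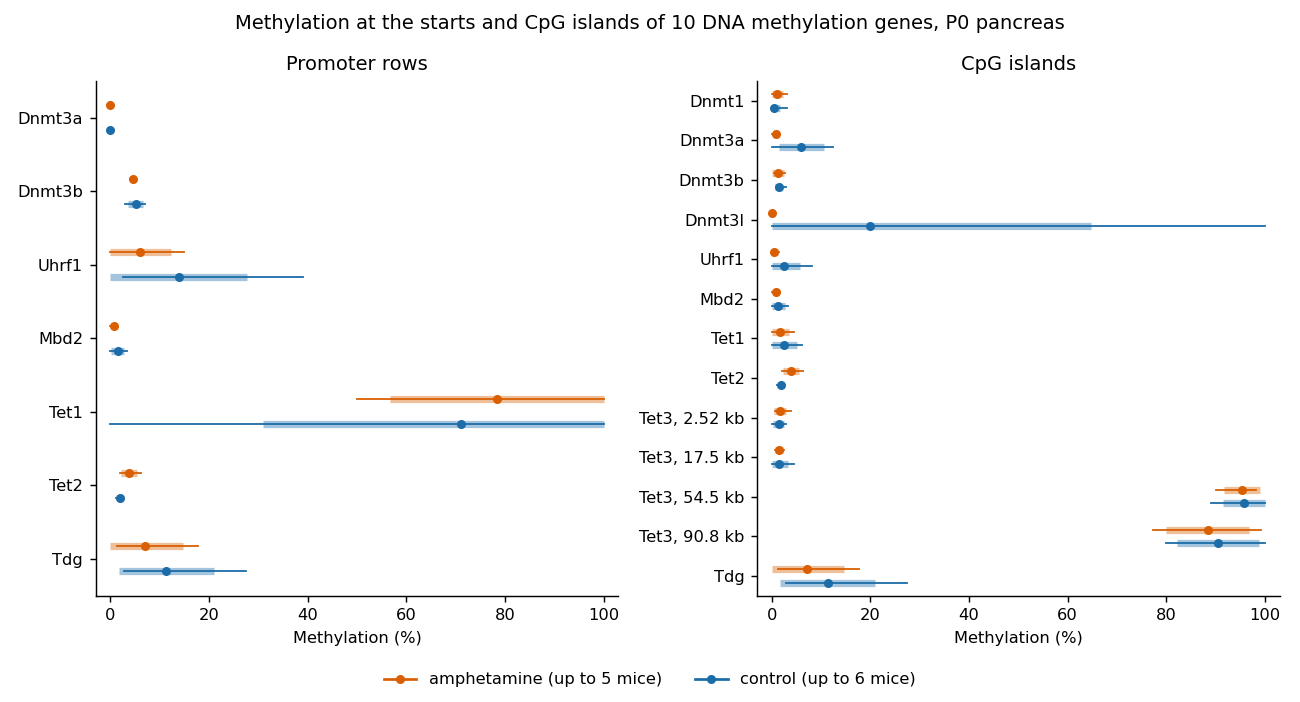
Methylation (x axis, %) of the 7 promoter rows (left) and 13 CpG islands (right) of the methylation genes. Points are group means, thick bars the mean ± SD cut at 0% and 100%, and thin lines the lowest to the highest mouse, with Tet3 islands named by their distance from the listed start. Except for the Tet1 promoter row and 2 Tet3 islands, group means lay at or under 20%.

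The islands that held or lay beside a coding start of the gene were low in methylation, and 2 Tet3 islands that were almost wholly coding exon, far from a start, were highly methylated. In controls 10 of the 13 islands were under 20%, and over all islands 90.9% were. Dnmt1 and Tet3, which had no promoter row, had islands over transcript starts. The Dnmt1 island (chr9:20952561-20953008), 7.1 kb inside the listed gene and over 3 coding transcript starts, was at 1.07% ± 1.28 (SD, n = 5) after amphetamine and 0.505% ± 1.24 (SD, n = 6) in controls, whereas the tile over the listed start was at 72.2% ± 20.1 and 83.9% ± 8.37. Tet3 had 4 islands. The one at chr6:83455857-83457263 and the one at chr6:83441467-83441729 each covered a transcript start, and stood at 1.67% ± 1.24 and 1.5% ± 0.802 after amphetamine and at 1.44% ± 1.10 and 1.47% ± 1.87 in controls. The remaining pair, at chr6:83404466-83404724 (coding over all of its 259 bp) and chr6:83368002-83368474 (430 of 473 bp coding), were at 95.4% ± 3.66 and 88.4% ± 8.37 after amphetamine and at 95.8% ± 4.21 and 90.5% ± 8.31 in controls.

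Among the remaining islands, those of Dnmt3b (1.27% and 1.39%), Mbd2 (0.775% and 1.33%) and Uhrf1 (0.510% and 2.51%) overlapped the listed start. The islands of Tet2 and Tdg gave the same means, SDs and coverages as their promoter rows, and are therefore not a second measurement. The island counted for Dnmt3l (chr10:78043412-78043683) holds the annotated start of another gene, Aire, lay 1125 bp from the nearest coding start of Dnmt3l, and was at 0% in the 4 exposed mice with reads. In controls it averaged 20.0% with a range of 0% to 100% over 5 mice, at a mean coverage of 40.3 reads. These summaries put 4 of the 5 control values at 0%, and the value of 100% came from a male.

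Over whole genes the members spread widely, with the same gene lowest in both groups. Dnmt3a was lowest, at 25.3% ± 1.28 (SD, n = 5) after amphetamine and 23.8% ± 1.41 (SD, n = 6) in controls. Tet2 at 70.02% ± 2.94 and 67.4% ± 4.10 and Dnmt3l at 65.7% ± 11.9 and 68.1% ± 11.4 were highest, and these did not differ from each other beyond their spread. Between them lay Mbd2 (31.6% and 36.8%), Dnmt3b (34.2% and 32.9%), Tet3 (42.7% and 41.0%), Tet1 (42.6% and 43.8%), Tdg (42.6% and 49.9%), Uhrf1 (50.5% and 56.4%) and Dnmt1 (60.7% and 61.7%). Neighbours from Tet3 to Tdg overlapped in range. A whole-gene value takes in the start of the gene as well as its body. In controls the tiles under 20% held 36.2% of the tile coverage of Dnmt3a and 45.3% of that of Mbd2, 27.0% of that of Dnmt1 and none of that of Dnmt3l or Uhrf1.

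The tiles showed the same arrangement along each gene. In controls 13 of the 102 tiles were under 20%, 22 between 20% and 70%, and 67 above 70%, where 74.3% of all tiles lay. Of the 13 low tiles, 11 held a coding transcript start or an island. Not every tile with a coding start was low. The Dnmt3l tile at chr10:78055001-78060000 held 1 coding start and the Tdg tile at chr10:82640001-82645000 held 2. These tiles were at 95.8% and 91.5% in controls. Dnmt3a, the longest of these genes at 108.4 kb, had 6 tiles of middle methylation and a second low stretch at its internal island, and Tet1 had a low tile without an island 31.62 kb from the listed start (chr10:62865001-62870000), at 11.6% ± 11.1 (SD, n = 5) and 17.2% ± 7.33 (SD, n = 6). Dnmt3l and Uhrf1 had no tile under 20% in controls. Their start tiles were at 47.1% ± 14.5 and 45.8% ± 15.9 for Dnmt3l and at 18.2% ± 4.42 and 22.6% ± 6.88 for Uhrf1.

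Of the genes whose start tile has not been given, all but Tet1 had a low one. The tile over the listed start of Mbd2 was at 1.17% ± 0.558 (SD, n = 5) after amphetamine and 1.98% ± 1.17 (SD, n = 6) in controls, that of Tet2 at 3.23% ± 1.71 and 1.60% ± 0.834, that of Tet3 at 7.12% ± 2.43 and 7.06% ± 1.97, and that of Tdg at 9.003% ± 9.02 and 16.6% ± 13.1. The start tile of Dnmt3b held the same values as its promoter row. The tile over the listed start of Tet1 was at 76.4% ± 14.8 and 78.1% ± 22.9, like its promoter row.

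**Figure D2:**
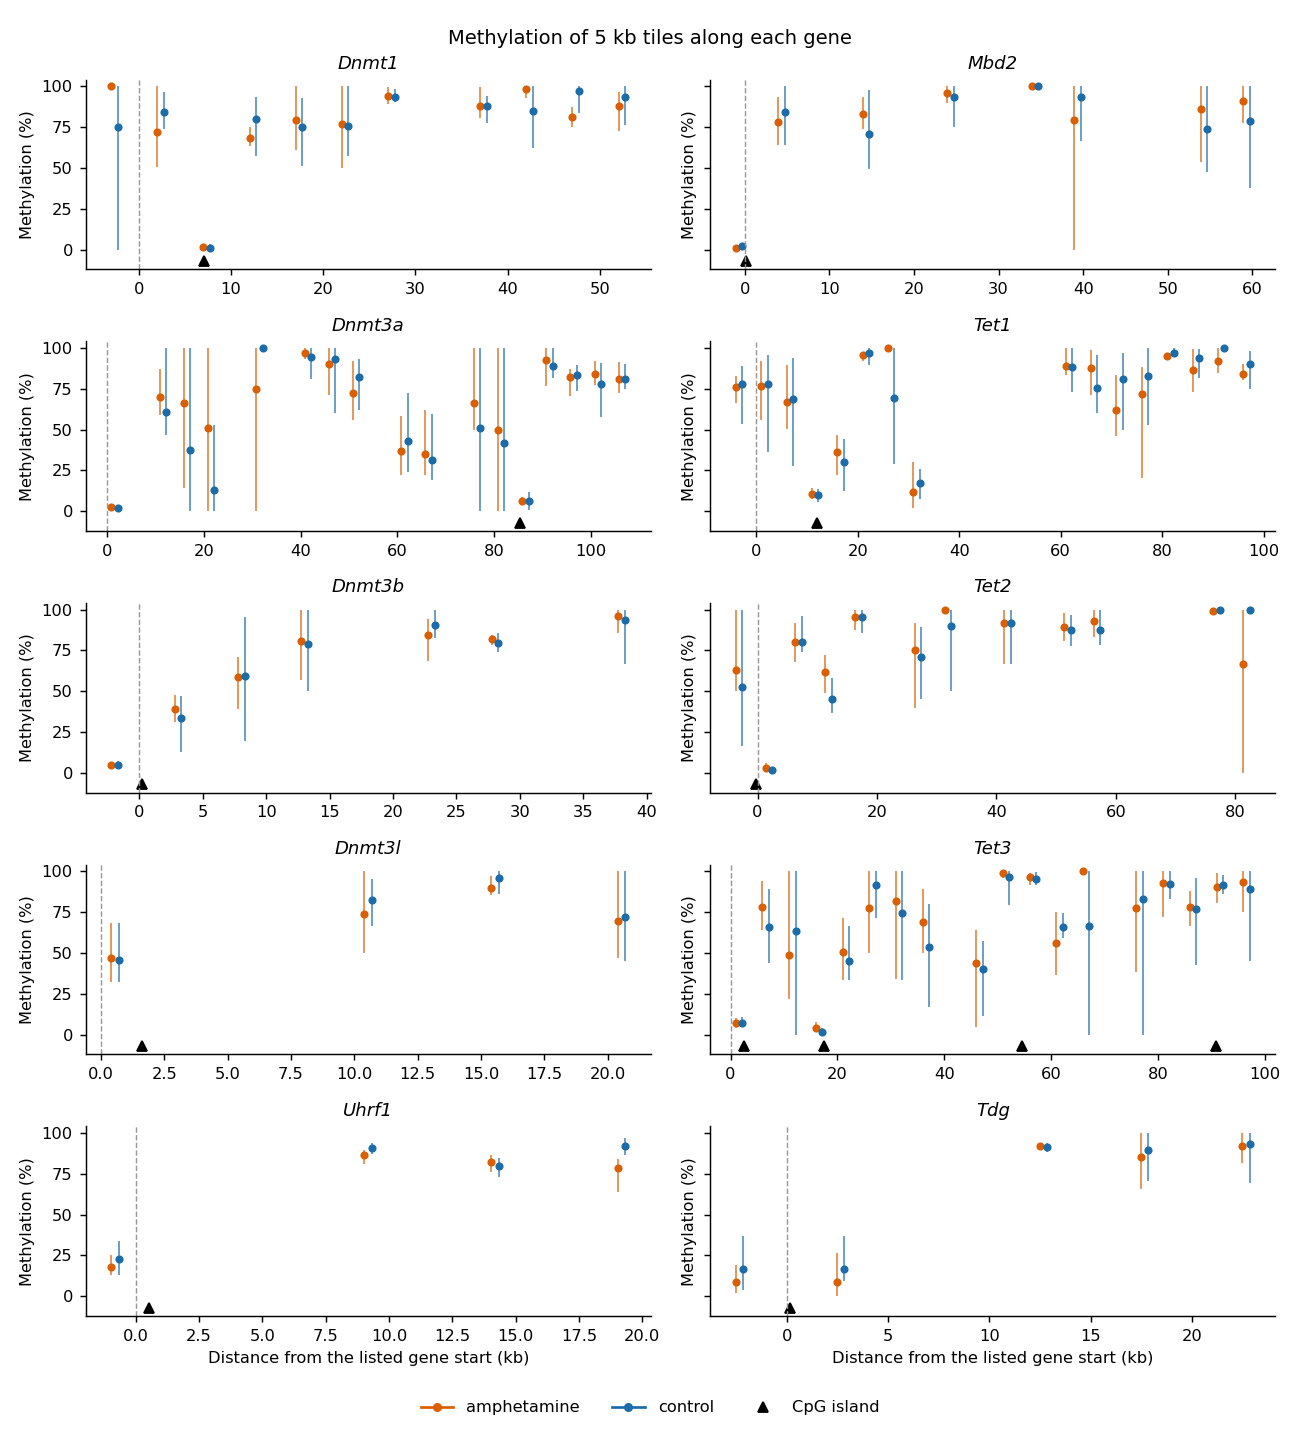
Methylation (y axis, %) of the 102 tiles of 5000 bp by distance of their middle from the listed gene start (x axis, kb), 1 panel per gene. Points are group means, offset sideways for legibility, lines run from the lowest to the highest mouse, and triangles mark CpG islands. In all 10 genes the tile lowest in controls held a coding transcript start or an island, and 67 of the 102 tiles were above 70%.

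Between amphetamine-exposed and control offspring, no promoter, gene, island or tile of the 10 genes passed an adjusted p of 0.05 in the moderated limma test. The background was as sparse: 0.0164% of promoters, 0.0116% of genes, 0.0135% of islands and 0.0185% of tiles passed it. At an unadjusted p under 0.05 were 1 of 7 promoters (4.11% of all), 1 of 10 genes (4.38%), 2 of 13 islands (4.10%) and 4 of 102 tiles (4.40%). Ranges of the groups separated at 1 tile and at no promoter, gene or island, where 0.525% of tiles, 0.538% of promoters, 0.369% of genes and 0.486% of islands did so. With so few regions, these counts do not set the members apart from the background. The median difference was -1.07 percentage points over the 10 genes and 0.222 over the 102 tiles, against -0.0862 and 0 over all genes and tiles. Of the tiles, 53 were higher after amphetamine, 47 lower and 2 equal.

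Uhrf1, the protein that guides Dnmt1 to newly copied DNA, gave the smallest p among the 10 whole genes and the one tile at which the groups separated. Over the gene (chr17:56303321-56323486) the exposed mice ranged from 47.5% to 53.7% around a mean of 50.5% ± 2.94 (SD, n = 5), and the controls from 52.8% to 62.0% around 56.4% ± 3.18 (SD, n = 6), so that the ranges touched only at their edges. The difference was -5.87 ± 1.91 (SE) percentage points, with a 95% interval of -10.1 to -1.62, an unadjusted p of 0.0115 and an adjusted p of 0.984. The tile at the 3′ end of the gene (chr17:56320001-56325000, 516 bp of coding exon and 987 bp of untranslated exon) was at 78.5% ± 8.37 after amphetamine with mice between 63.9% and 84.0%, and at 91.8% ± 3.32 in controls with mice between 86.8% and 96.9%. Every exposed mouse thus lay below every control mouse there. This difference was -13.3 ± 3.67 percentage points (unadjusted p = 0.00466, adjusted p = 0.965), on a mean coverage of 182 and 126 reads. The tile lies partly inside the gene, so that both values share reads. The promoter of Uhrf1 differed by -7.87 percentage points (95% interval -22.3 to 6.60) and its island by -2.00 (-5.10 to 1.10), which were within the spread between mice.

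Tet2, one of the 3 enzymes that oxidise 5-methylcytosine, had the one promoter with an unadjusted p under 0.05. Its exposed mice ranged from 1.96% to 6.26% and its controls from 1.11% to 2.63%, overlapping at the low end. The difference was 1.94 ± 0.779 (SE) percentage points (95% interval 0.200 to 3.68, unadjusted p = 0.0324, adjusted p = 0.958). The island of Tet2, which holds the same reads, gave an unadjusted p of 0.0209 and an adjusted p of 0.923. Its means and SDs equal those of the promoter, so the unadjusted p-values differ only through the variance moderation of each class. The tile over the listed start, at 3.23% and 1.60%, differed by 1.64 points (95% interval -1.35 to 4.62, unadjusted p = 0.250, adjusted p = 0.965). The tile 11.89 kb into the gene (chr3:133530001-133535000, no exon) was at 61.6% ± 10.4 (SD, n = 5) after amphetamine and 45.3% ± 8.51 (SD, n = 6) in controls, with ranges of 48.7% to 72.1% and 36.8% to 58.1%. It differed by 16.3 ± 5.49 percentage points (unadjusted p = 0.0142, adjusted p = 0.965). The whole gene differed by 2.58 points (95% interval -2.32 to 7.48).

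Dnmt3a, a methyltransferase that sets new methylation, had the second island with an unadjusted p under 0.05. This island (chr12:3891227-3891634) lies 85.42 kb into the gene and ends 94 bp before the start of the transcript Dnmt3a-205. The sequence given above covers its last 141 of 408 bp. It was at 0.833% ± 0.593 (SD, n = 5) after amphetamine, with mice between 0% and 1.65%, and at 5.98% ± 4.52 (SD, n = 6) in controls, with mice between 0% and 12.5%. The exposed mice were all within the low end of the controls. The difference was -5.15 ± 1.97 percentage points (95% interval -9.54 to -0.749, unadjusted p = 0.0262, adjusted p = 0.923) at 153 and 126 reads. The tile that holds this island (chr12:3890001-3895000) was at 6.18% ± 1.81 and 6.24% ± 4.58 on 393 and 261 reads. It differed by only -0.0588 points (95% interval -5.31 to 5.19). Over the whole gene Dnmt3a differed by 1.44 points in the other direction (95% interval -0.986 to 3.86).

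Dnmt1, which copies methylation after replication, and Tet1 each had 1 tile with an unadjusted p under 0.05. The Dnmt1 tile (chr9:20910001-20915000, with 999 bp of coding exon, also holding Mir7081) was at 81.2% ± 5.48 (SD, n = 5) after amphetamine and 96.9% ± 6.69 (SD, n = 6) in controls, with ranges of 75.0% to 87.5% and 83.3% to 100%. The difference of -15.7 ± 3.71 percentage points had the smallest p of all 102 tiles (unadjusted p = 0.00175, adjusted p = 0.883). The Tet1 tile (chr10:62870001-62875000, intronic) was at 100% in all 4 exposed mice with reads and at 69.4% ± 25.6 in controls, between 29.2% and 100%, on only 35 and 27 reads (unadjusted p = 0.0349, adjusted p = 0.965). The Dnmt1 gene as a whole differed by -1.01 points (95% interval -6.07 to 4.06) and Tet1 by -1.14 (-4.78 to 2.50).

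The other members gave no unadjusted p under 0.05 in any region. Tdg, which excises oxidised cytosines, had the largest whole-gene difference of the 10, -7.27 ± 4.75 percentage points, with a 95% interval of -17.8 to 3.28 that includes 0. Mbd2 differed by -5.17 (-12.98 to 2.64), Dnmt3l by -2.45 (-17.2 to 12.3), Dnmt3b by 1.27 (-3.15 to 5.69) and Tet3 by 1.68 (-2.01 to 5.38). At the well-covered islands the intervals were tighter. The difference was -0.125 (-1.42 to 1.17) at the Dnmt3b island and 0.233 (-1.34 to 1.81) at the Tet3 island nearest the listed start. The tile of smallest p was at 84.7% ± 9.42 (SD, n = 5) after amphetamine and 90.3% ± 6.72 (SD, n = 6) in controls for Dnmt3b, at 89.8% ± 4.94 and 95.8% ± 5.50 for Dnmt3l, and at 55.9% ± 14.0 and 66.1% ± 5.26 for Tet3. For Tdg, just downstream of its start, it was at 8.64% ± 10.8 and 16.9% ± 10.3, and for Mbd2 at 83.0% ± 8.41 and 70.9% ± 16.9. The groups overlapped at each of these tiles. Tiles with few reads spanned the widest values, as at Dnmt3a (chr12:3825001-3830000), where 4 mice per group gave 50.9% ± 43.5 and 13.2% ± 26.4 on 33 and 30 reads (unadjusted p = 0.154, adjusted p = 0.965).

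**Figure D3:**
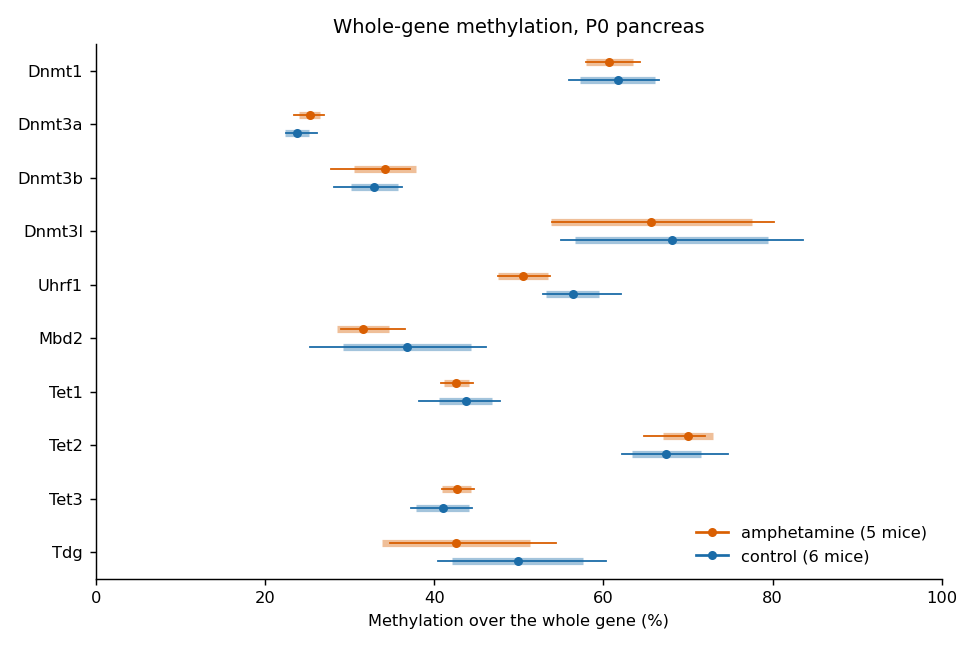
Methylation over the whole gene (x axis, %) for the 10 methylation genes in 5 exposed and 6 control mice. Points are means, thick bars the mean ± SD and thin lines the lowest to the highest mouse. The ranges of the groups overlap for every gene, least for Uhrf1 (47.5% to 53.7% against 52.8% to 62.0%).

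**Figure D4:**
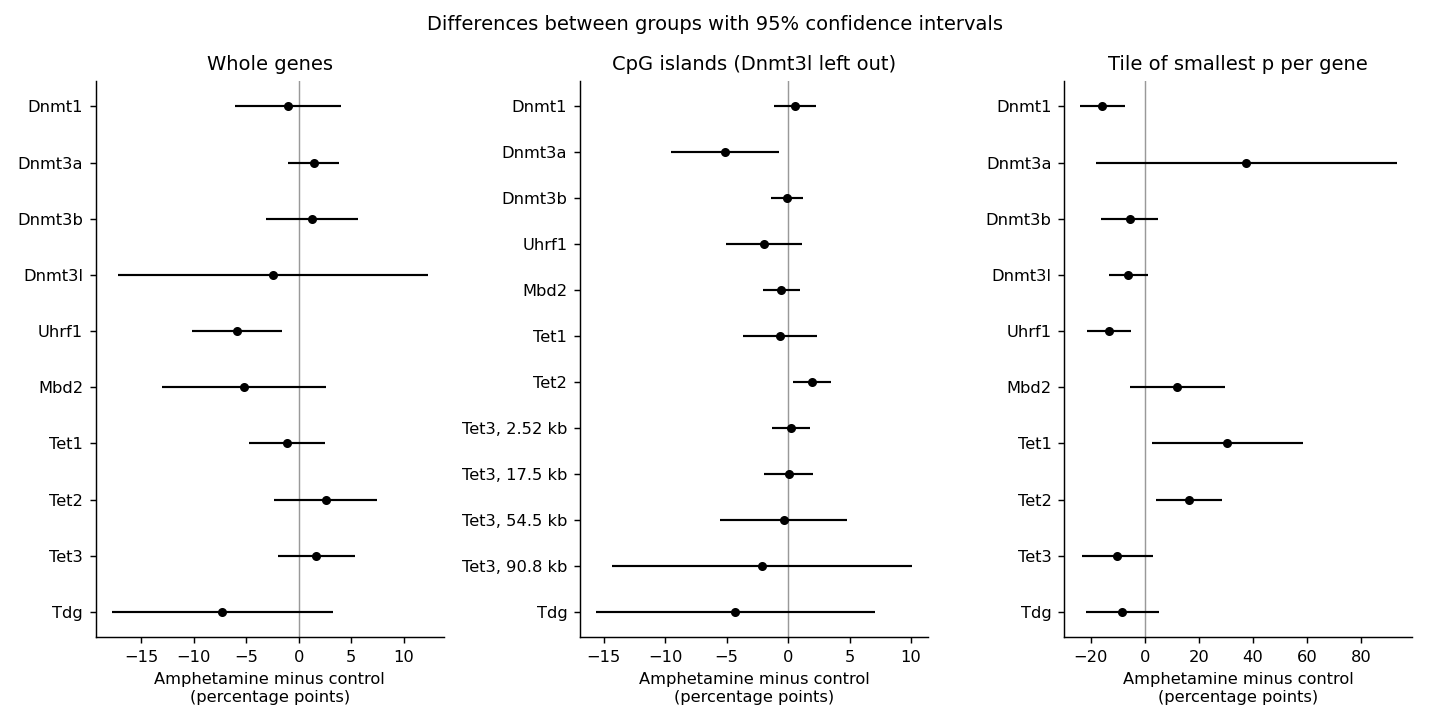
Amphetamine minus control (x axis, percentage points) with 95% confidence intervals from the moderated test, for whole genes, CpG islands and the tile of smallest p of each gene. The Dnmt3l island, whose interval runs from -69.4 to 29.4, is left out so that the others can be seen. Intervals exclude 0 for the Uhrf1 gene, the Dnmt3a and Tet2 islands and the chosen tiles of Dnmt1, Uhrf1, Tet1 and Tet2, none of which passed the adjustment over all regions.

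Grouped by sex, the same 11 mice (6 female, 5 male) gave no member region with an adjusted p under 0.05 either, where 0.564% of promoters, 0.373% of genes, 1.09% of islands and 0.0760% of tiles passed it. All 10 genes are autosomal, and in a fit without chromosomes X and Y these shares were 0.0130% of promoters, 0.00408% of genes, 0.00694% of islands and 0.0300% of tiles. At no region of the members did the sexes separate, but the share of all regions at which they did is not given here. This count is therefore not a result about the members. Unadjusted p-values under 0.05 were found at 1 of 7 promoters (6.07% of all), 0 of 10 genes (6.50%), 1 of 13 islands (6.65%) and 5 of 102 tiles (5.59%). The unadjusted shares without X and Y were 4.67%, 5.53%, 4.84% and 5.26%. The promoter and island were those of Tdg. Females averaged 14.7% ± 8.55 (SD, n = 6) there, between 1.26% and 27.5%, and males 3.002% ± 1.31 (SD, n = 5), between 1.75% and 4.56%. The males were thus all near the low end, while at least 1 female, an exposed one, was lower than any of them. The difference was 11.7 percentage points (unadjusted p = 0.0110, adjusted p = 0.497), and the tile over the Tdg start went the same way with 20.2% in females and 4.74% in males (unadjusted p = 0.0136, adjusted p = 0.796). Tdg as a whole gene was at 50.8% ± 8.79 and 41.4% ± 5.68 (unadjusted p = 0.0566, adjusted p = 0.776). Since the exposed group held 3 females of 5 and the control group 3 of 6, sex and exposure were nearly balanced, but the summaries allow no fit of both together.

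The smallest p for sex among the tiles fell on the low Tet1 tile without an island (chr10:62865001-62870000), with 8.72% ± 5.35 (SD, n = 6) in females and 21.8% ± 7.67 (SD, n = 5) in males, overlapping between 11.1% and 17.5% (unadjusted p = 0.00700, adjusted p = 0.698). The others were the Dnmt3l tile at chr10:78050001-78055000 (89.7% in females and 66.9% in males), the Dnmt3b tile at chr2:153675001-153680000 (83.1% and 77.6%) and the Dnmt3a tile at chr12:3910001-3915000 (84.2% and 77.0%), with unadjusted p-values of 0.0154, 0.0236 and 0.0495 and adjusted p-values of 0.815, 0.846 and 0.894.

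**Figure D5:**
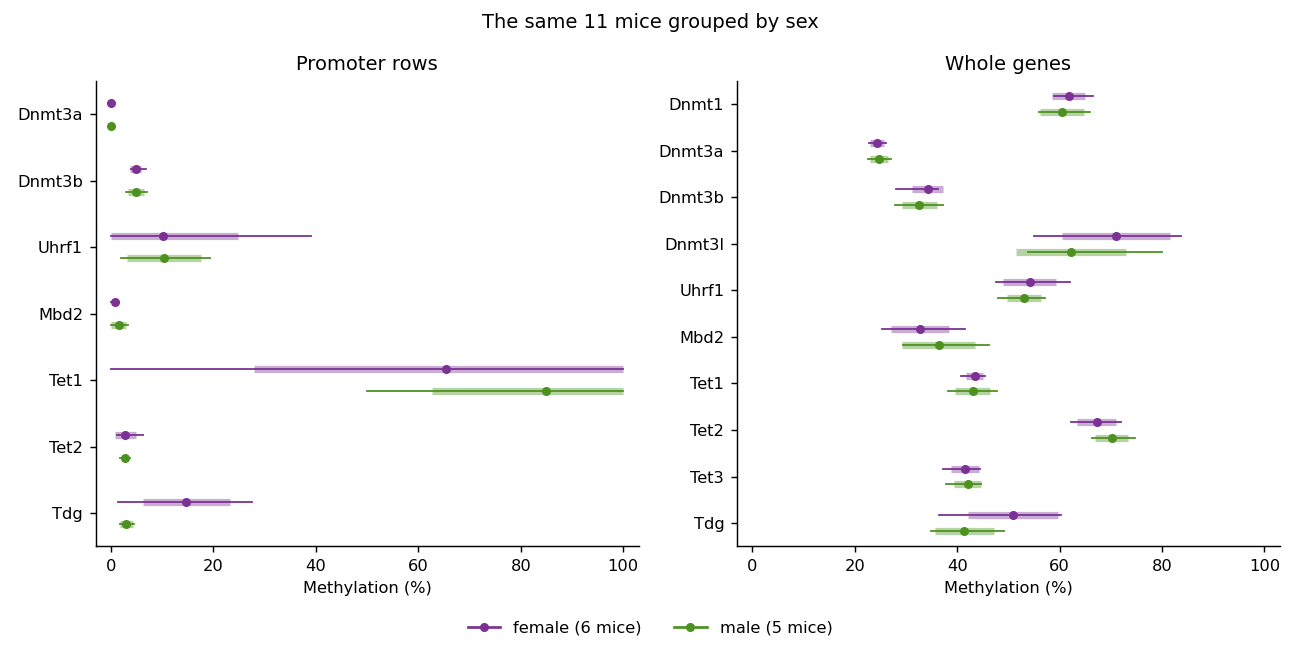
Methylation (x axis, %) of the promoter rows and whole genes with the 11 mice grouped by sex. Points are means, thick bars the mean ± SD cut at 0% and 100%, and thin lines the lowest to the highest mouse. The Tdg promoter shows the clearest offset, 14.7% in females against 3.002% in males, and the ranges of the sexes overlap for every gene.

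A further 62 genes of the same pathway were counted by role. Of the 59 with a promoter row, none passed an adjusted p of 0.05, 1 was higher and 1 lower at an unadjusted p under 0.05 (4.11% of all promoters reached it), and the median difference was 0.0166 percentage points against 0 over all promoters. Over their 62 gene rows, none reached an unadjusted p of 0.05 (4.38% of all genes did). Of these rows 24 were higher and 37 lower, where 47.9% of all genes were higher, and the median was -1.15 against -0.0862 over all genes. Both promoters with a small p belonged to the 13 genes of methyl donor supply. Gnmt, a methyltransferase that consumes S-adenosylmethionine, was at 30.1% ± 10.1 (SD, n = 5) after amphetamine, between 18.6% and 42.6%, and 15.6% ± 6.29 (SD, n = 6) in controls, between 6.68% and 23.9% (unadjusted p = 0.0126, adjusted p = 0.958). Shmt2, the mitochondrial serine hydroxymethyltransferase, was at 8.53% ± 19.1 and 33.5% ± 13.3 (unadjusted p = 0.0239, adjusted p = 0.958). Its exposed mice ran from 0% to 42.6% and its controls from 19.0% to 55.1%. These summaries put every exposed mouse but the highest at 0%. None of the 16 maintenance and targeting partners, 9 readers, 5 binders of unmethylated CpGs or 19 genes of demethylation and base excision repair had an unadjusted p under 0.05 between treatments in either class of region.

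A small set of these genes carried methylated promoter rows in controls, above 50%. They included Usp7, a deubiquitinase that binds Uhrf1 and Dnmt1, at 86.0% with mice from 50% to 100%. Bhmt in methyl donor supply was at 89.1% (68.7% to 100%) and the glycosylase Smug1 at 75.5% (40% to 100%). Dppa3, known from germ cells and the zygote, was at 61.8% (30.6% to 85%). The corepressor Trim28 was at 54.2% (0% to 100%). Mean control coverage was 45.8 reads for Usp7, 39.7 for Bhmt, 91 for Smug1, 77.5 for Dppa3 and 43.3 for Trim28. Over all promoters, 26.1% lay above 70% in controls. A promoter row is set by the listed gene start, and as at Tet1 it can miss a CpG-rich start elsewhere. Whether these rows do so was not tested. By sex, 2 of the 59 promoters passed an adjusted p of 0.05 (0.564% of all promoters did), and both were on chromosome X. With chromosomes X and Y in the fit 137 of 24293 promoters passed by sex, and without them 3 of 23125. The share over all promoters is therefore no yardstick for X-linked genes. Suv39h1, a histone H3K9 methyltransferase, was at 32.5% ± 7.82 (SD, n = 6) in females and 1.74% ± 2.01 (SD, n = 5) in males (adjusted p = 0.00352). Zbtb33, the methyl-CpG reader Kaiso, was at 29.2% ± 5.16 and 5.82% ± 1.47 (adjusted p = 0.00227). The sexes did not overlap at either. Their gene rows were the 2 of 62 that passed (0.373% of all genes did), with adjusted p-values of 0.00136 and 0.00392, and the sexes did not overlap there either. Over all genes, calls by sex fell from 96 of 25721 to 1 of 24491 without X and Y. The counts of pathway genes passing by sex are therefore not a result about the pathway. At an unadjusted p under 0.05 by sex were 3 of the 59 promoters, all higher in females (6.07% of all promoters reached it). Of the 62 gene rows, 4 were higher and 2 lower in females at that threshold (6.50% of all genes reached it). Among these, the X-linked Ogt promoter (25.3% in females and 0% in males) did not pass the adjustment. Nor did the gene rows of Bhmt (86.8% and 76.7%), Nthl1 (96.01% and 83.0%), Lig3 (22.7% and 27.4%) and Ehmt2 (28.8% and 32.6%). The adjusted p-values of this promoter and these gene rows lay between 0.196 and 0.732. The sexes did not overlap at the Bhmt and Lig3 gene rows. No share over all promoters or genes is given here for sexes that do not overlap.

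The depth was limited and uneven between groups. Summed over all tiles, the exposed mice had 1.24 times the coverage of the controls, and coverage was higher in the exposed group at 86 of the 102 member tiles. The part of that gap in any difference above was not tested. All 11 mice had reads at 6 of 7 promoters, 10 of 10 genes, 11 of 13 islands and 84 of 102 tiles. For the tissue label, the promoter of Ptf1a, an acinar transcription factor, was at 3.20% and 3.56%, and that of Pdx1, a pancreatic transcription factor, at 4.51% and 3.25%. The promoter of the gut factor Cdx2 was as low, at 1.02% and 2.99%. From the same gut list, the Fabp2 promoter was at 78.8% and 69.6% and the Vil1 gene row at 72.3% and 76.0%. Among endocrine genes, the Neurod1 promoter was at 13.1% and 5.07%, whereas that of the islet hormone gene Gcg was at 80.0% and 90.0%. The gene rows of Ins1 and Ins2 were at 84.6% and 99.6% and at 76.2% and 85.8%. That of Ins1 rested on only 14.2 and 13.8 reads. No spread or test is given for these marker rows, so no difference between groups is read from them. The paper reports no hypermethylation or hypomethylation of Ins1 or Ins2. Promoters of 3 liver genes had a control median of 73.5%, though that of Ahsg rested on 1 and 1.33 reads. Those of 3 lymphoid genes had a control median of 78.2%, but promoters of secreted acinar enzymes ran up to 90.3%. No RNA was measured here, so that these values do not identify cell types.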

How the data were processed

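DNA of P0 pancreata was digested with MspI and TaqI and sequenced by RRBS (single-end). Per the study's methods, the authors ran Bismark against mm10 (NextFlow methylseq) and summarised CpGs per region with RnBeads. The version of Bismark is not given in the sources used here. Methylation was deposited as a fraction (0 to 1), the authors' mean over those mice of a group that had reads. It is given as a percent, with their SD, lowest and highest mouse. The deposited coverage is a signal averaged by the authors over mice and not scaled for depth, read here as summed over the CpGs of a region. The sources used here do not state its unit. The authors' own differences, quotients, p-values and ranks were not used. No values per mouse were analysed here.

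From group mean, SD and number of mice with reads (at least 2 per group), a pooled variance was computed for each region, moderated with limma (version 3.58.1, R 4.3.3) over all regions of the class, and tested two-sided with Benjamini-Hochberg adjustment over that class, with a threshold of 0.05. The procedure was run on simulated promoters with known shifts far larger than the spread between mice. This does not show how small a difference it would find. Ranges were compared by lowest and highest mouse. Islands and tiles were assigned by an overlap of at least 1 bp with the gene plus 1500 bp upstream of its listed start. Transcripts were annotated with GENCODE M21 on GRCm38, the assembly of mm10, and 0 tiles ran past a chromosome end. All islands, the tile over each start, the tile of smallest p and every tile with separated groups are named, as are pathway genes with an unadjusted p under 0.05, separated groups or a control promoter above 50%. One gene that met this rule is not reported here. Members and lists were chosen with earlier results of these data known. Alternatives were the logit scale (offset 0.01), no moderation or a trended prior, a mean coverage of at least 10, reads in all 11 mice, autosomes alone, and an overlap of at least 50%. Those for sex were added after seeing the data.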

Additional observations from a re-analysis of the deposited data

Results flagged for a closer look

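Values per mouse were not analysed here, but the number of mice, mean, SD, lowest and highest value set a lower limit on how far an extreme mouse stands from the nearest of the others, relative to the whole range. This limit passed Dixon's 95% critical value in 11 of 116 groups (9.48%). For independent groups of normal values chance flags about 1 in 20. That rate cannot be set against this share, because the groups share mice and reads, some tiles were chosen for a small p or separated groups, the values are bounded at 0% and 100%, and the ratio is only a lower limit.

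At the Uhrf1 3′ tile 1 exposed mouse was at 63.9%, and the other 4 averaged 82.2%, still with the highest of them, 84.0%, below the lowest control. At the Dnmt1 tile of smallest p 1 control was at 83.3%, and the other 5 averaged 99.6%. For whole genes, 1 exposed mouse was low at Dnmt3b (27.8%, the other 4 averaging 35.8%) and 1 at Tet2 (64.8%, the other 4 averaging 71.3%).

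Single high controls were found at the Dnmt1 island (3.03%), the Dnmt3l island that overlaps Aire (100%), the Dnmt3a tile with few reads (52.9%), the Tet2 start tile (3.27%), the Tet3 start tile (10.9%) and the Tdg tile just downstream of its start (36.7%). One high exposed mouse was found at the Tet3 island nearest the listed start (3.81%).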

How the results depend on the processing

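The number of member regions with an adjusted p under 0.05 was 0 in every class and comparison and stayed 0 under no moderation, a trended prior, the coverage minimum, reads in all 11 mice, autosomes alone and, for islands and tiles between treatments, an overlap of at least 50%. The logit scale, applied to group means with their SDs rescaled and not to single mice, changed 3 of these counts. It also raised the calls over all regions, from 48 to 872 tiles between treatments and, by sex, from 137 to 378 promoters and from 161 to 302 islands. It gave 1 tile between treatments, the sparsely covered intronic Tet1 tile whose exposed mice were all at 100% with an SD of 0 (difference 5.50 on the log2 odds scale, adjusted p = 0.0355), and, by sex, 1 promoter and 1 island, both the same reads of Tdg (2.16 on that scale, adjusted p = 0.0472 for the promoter and 0.0376 for the island). Tiles under an unadjusted p of 0.05 went from 4 to 11 between treatments and from 5 to 11 by sex on that scale, while the share of all tiles went from 4.40% to 9.45% and from 5.59% to 10.8%. For the Uhrf1 3′ tile the adjusted p ranged from 0.174 to 0.999, for the Uhrf1 gene from 0.696 to 0.995, for the Tet2 promoter from 0.397 to 0.978 and for the Dnmt3a island from 0.200 to 0.950, with no reversal of direction. For the Dnmt1 tile named above it ranged from 0.486 to 0.999. On the logit scale its unadjusted p was 0.0385, and the smallest of the member tiles was that of the Tet1 tile, 7.84e-05. Leaving out each mouse was not run, because the tables hold group summaries. No paired analysis was made, because the labels give no pairing of exposed with control mice and the columns are group summaries.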
